A study of Mus musculus with 12 samples.

Results

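The genes described here are the 10 mouse genes that make, load and switch on major histocompatibility complex (MHC) class II molecules: H2-Aa, H2-Ab1, H2-Eb1, Cd74, H2-DMa, H2-DMb1, H2-DMb2, H2-Oa, H2-Ob and Ciita. They were chosen by gene name, through the 19 of 56605 array probes that carry these names, and all 10 were among the 25947 genes and transcripts tested. Their RNA was measured in 12 kidney samples of male mice on Agilent microarrays, where RNA carrying the dye Cy3 is captured by short DNA probes and each spot is scanned for brightness. There were 4 groups of 3 samples. WT sham samples came from wild-type mice that had a sham operation, and WT IRI samples from wild-type mice taken 24 h after ischemia-reperfusion injury (IRI), in which blood flow to both kidneys is stopped and then let back in. KO sham and KO IRI samples came from mice given the same operations that carried a knockout of Jaml, which encodes a junctional adhesion molecule-like protein of leukocytes. The labels place the knockout on a C57/6J background and describe the WT mice only by genotype, and they do not give the age of the mice, whether the WT mice were littermates, or how many founder lines the knockout came from. One text of the labels gives 40 min of clamping and another gives 30 min of ligation. Each kidney was read whole, so fewer cells of a type and less RNA per cell cannot be told apart. The labels call the 3 samples of a group independent but name no animals, so the p-values measure the spread between these samples.

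MHC class II molecules sit on dendritic cells, macrophages and B cells and show peptides from engulfed proteins to CD4 T cells, and other cells, tubule epithelium among them, can be made to express them by interferon gamma. An alpha and a beta chain assemble around the invariant chain, which holds the groove closed until proteases degrade it in the endosome. H2-DM then exchanges the remaining fragment for peptides, H2-DO restrains H2-DM, and CIITA is the coactivator that turns on the whole group at shared promoter elements.

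A pair of these elements was found in the promoters of 5 of the 7 members with a promoter window, which are shown with that of H2-DMb2 because the elements are the sequence through which CIITA acts. The windows are RefSeq sequence on GRCm38.p6, each 5' to 3' on the strand of its gene. Except in H2-DMb2, the first capitals mark the core of the X box (GNAAC, where N is any base) and the second the core of the Y box (GATTGG, the inverted CCAAT motif bound by NF-Y). In H2-DMb2 the only capitals mark the Y core.
H2-Aa: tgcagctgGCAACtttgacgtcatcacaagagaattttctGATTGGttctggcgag
H2-Eb1: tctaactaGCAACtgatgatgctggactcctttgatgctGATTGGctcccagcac
H2-DMb1: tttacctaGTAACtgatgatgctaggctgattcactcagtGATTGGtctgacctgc
H2-DMb2: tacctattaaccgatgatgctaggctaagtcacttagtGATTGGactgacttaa
H2-Oa: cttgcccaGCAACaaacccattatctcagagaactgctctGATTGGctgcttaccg
H2-Ob: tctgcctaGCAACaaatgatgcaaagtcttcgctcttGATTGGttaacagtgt
These windows lie at chr17:34287857-34287912 on the minus strand for H2-Aa, and on the plus strand at chr17:34305768-34305822 for H2-Eb1, chr17:34153089-34153144 for H2-DMb1, chr17:34145120-34145173 for H2-DMb2, chr17:34092295-34092350 for H2-Oa and chr17:34238810-34238862 for H2-Ob. In H2-Aa the X core began 81 bases and the Y core 49 bases before the annotated start. The spacing from X core to Y core was 32 bases in H2-Aa, H2-DMb1 and H2-Oa, 31 in H2-Eb1 and 29 in H2-Ob, and in H2-DMb2 the Y core had no X core paired with it. Both strands were searched, and a pair was counted where both cores lay on 1 strand with their starts 15 to 35 bases apart. Of 32851 RefSeq windows of 300 bases, 84.8% held the X core, 16.1% the Y core and 1.2% such a pair. Windows were matched for 7 of the 10 members, and neither of the 2 windows of H2-DMa held a pair. The letters were chosen with these promoters known, so the matches are a description and not evidence of binding.

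Each array had signal well above background for between 62.9% and 68.1% of its probes, and no spot was saturated. Levels are given throughout as the log2 processed signal minus the 75th percentile of that signal on its array, so a difference of 1 is 2-fold. All 8 proximal tubule markers, read as a check of the kidney label, were well above background on every array. WT IRI replicate 1 stood apart, with a root mean square deviation of 0.579 from its group mean over all genes against 0.205 to 0.433 on the other arrays, and results are given with and without it. WT sham replicates 1 and 2 differed from each other by an SD of 0.239 and KO sham replicates 1 and 3 by 0.221, against 0.336 to 0.849 for other pairs within a group. Whether the arrays of a close pair came from 1 animal or 1 extract is not known. Repeated spots within an array differed by SDs of 0.0298 to 0.0592, but they carry no labelling or hybridisation error and so cannot settle this. The arrays were kept as separate samples because the labels call them independent, and if they are not, n is below 3 in the sham groups and the errors given are too small. Member counts were therefore also computed with each close pair averaged and counted as 1 sample. All 6 WT arrays were on 1 slide and all 6 KO arrays on another, so genotype and slide cannot be told apart in any comparison of KO with WT. The difference between the responses to IRI, called the interaction below, is free of a constant slide difference. Jaml itself read -0.26, -0.26 and -0.44 in WT sham, 0.55, -1.80 and -1.64 in WT IRI, -3.54, -2.59 and -3.18 in KO sham and -1.89, -2.70 and -3.0 in KO IRI. It fell by 2.79 ± 0.55 (SE) on the log2 scale from WT sham to KO sham (limma, adjusted p = 0.0152), and it was -1.57 ± 0.55 in KO IRI against WT IRI (limma, adjusted p = 0.153). The sources used here do not say whether its probe lies in the deleted part.

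The class II genes were high in WT sham kidneys and lower in the other groups. H2-Aa, H2-Ab1 and H2-Eb1 encode the chains of the I-A molecule and the beta chain of I-E. In the order of replicates 1, 2 and 3, H2-Aa (mm9 chromosome 17, 34421285 to 34421344) read 4.78, 4.81 and 4.38 in WT sham, 3.99, 0.17 and 0.54 in WT IRI, 0.61, 1.54 and 0.50 in KO sham, and -0.59, -0.26 and -0.24 in KO IRI. Thus WT IRI replicate 1 lay just below the sham arrays while the other WT IRI arrays lay among the KO arrays. H2-Ab1 (mm9 chromosome 17, 34406296 to 34406355) read 7.50, 7.69 and 7.60 in WT sham, 7.66, 4.81 and 5.09 in WT IRI, 4.70, 5.64 and 4.47 in KO sham, and 3.85, 3.96 and 3.99 in KO IRI. On this probe WT IRI replicate 1 lay inside the range of the WT sham arrays. H2-Eb1 (mm9 chromosome 17, 34453075 to 34453134) read 7.25, 7.39 and 7.26 in WT sham, 6.87, 4.07 and 3.97 in WT IRI, 4.48, 5.22 and 4.26 in KO sham, and 3.44, 3.50 and 3.41 in KO IRI. For all 3 genes the WT sham and KO sham arrays did not overlap, nor did those of KO sham and KO IRI.

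From WT sham to WT IRI, H2-Aa fell by 3.09 ± 0.80 (SE, n = 3 per group; limma, adjusted p = 0.0341) and H2-Eb1 fell by 2.33 ± 0.63 (limma, adjusted p = 0.0392). The H2-Ab1 difference of -1.75 ± 0.62 did not pass the threshold of 0.05 (limma, adjusted p = 0.0936). In sham kidneys all 3 were lower in KO than in WT: H2-Aa by -3.77 ± 0.80 (limma, adjusted p = 0.0202), H2-Ab1 by -2.66 ± 0.62 (limma, adjusted p = 0.0277) and H2-Eb1 by -2.65 ± 0.63 (limma, adjusted p = 0.0303). The 3 further kept probes of H2-Ab1 also read higher on every WT sham array than on WT IRI replicates 2 and 3 and all KO arrays. On 1 of them WT IRI replicate 1, at 7.36, was inside the WT sham range, and on the other 2 it was below every WT sham array, at 7.29 against 7.61 to 7.86 and at 5.47 against 6.04 to 6.38. The mean over all 4 gave -2.36 (limma, adjusted p = 0.0553) for WT IRI and -3.36 (limma, adjusted p = 0.0193) for KO sham. Within KO animals the differences after IRI were -1.25 ± 0.80, -1.0 ± 0.62 and -1.20 ± 0.63 in that gene order, with limma adjusted p-values of 0.415, 0.391 and 0.31.

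Cd74 encodes the invariant chain, the chaperone of newly made class II chains and a receptor for the cytokine MIF. Its probe read 7.42, 7.35 and 7.08 in WT sham, 7.00, 3.58 and 3.83 in WT IRI, 3.54, 4.23 and 3.31 in KO sham, and 2.72, 3.18 and 2.85 in KO IRI. The highest WT IRI array was again replicate 1, close to the lowest WT sham array, and each of the 9 arrays outside WT sham was below all 3 WT sham arrays. Cd74 fell by 3.59 ± 0.72 from WT sham to KO sham (limma, adjusted p = 0.0162). Its difference of -2.48 ± 0.72 from WT sham to WT IRI just missed the threshold (limma, adjusted p = 0.0513), and that of -0.78 ± 0.72 from KO sham to KO IRI did not pass (limma, adjusted p = 0.598).

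**Figure D1:**
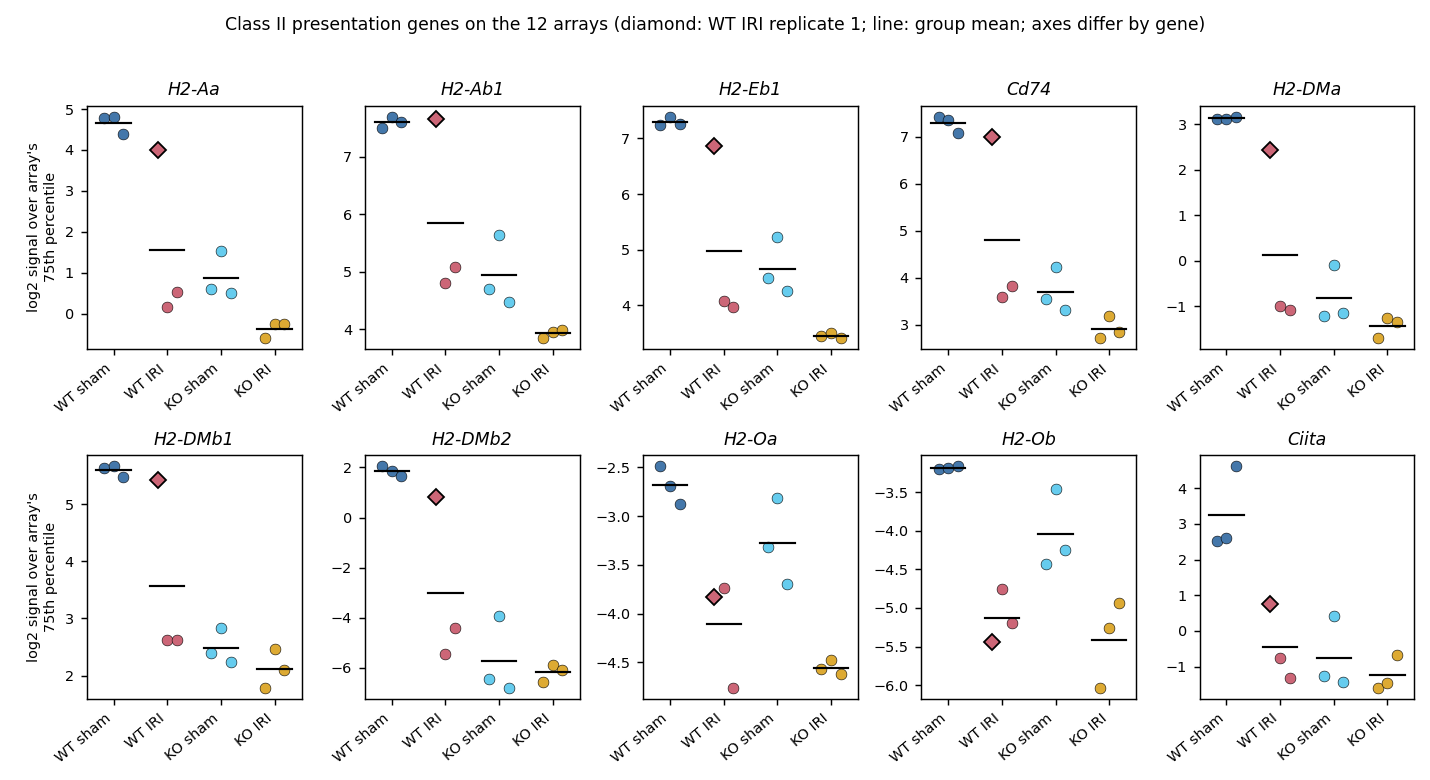
Level of each class II gene on every array, with a panel per gene and the log2 signal over the array's 75th percentile on the vertical axis, whose range differs by panel; points are arrays, lines are group means and the diamond is WT IRI replicate 1. In 7 panels (H2-Aa to H2-DMb2) the diamond sits near the WT sham arrays, whereas for H2-Oa and H2-Ob it sits with the other WT IRI arrays.

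H2-DMa pairs with a beta chain to form H2-DM, the editor that exchanges the invariant chain fragment for peptide. H2-DMa (mm9 chromosome 17, 34274300 to 34274863) read 3.12, 3.11 and 3.16 in WT sham, 2.44, -1.0 and -1.07 in WT IRI, -1.20, -0.09 and -1.15 in KO sham, and -1.69, -1.25 and -1.35 in KO IRI. It fell by 3.01 ± 0.77 in WT IRI against WT sham (limma, adjusted p = 0.0323) and by 3.95 ± 0.77 in KO sham against WT sham (limma, adjusted p = 0.0141). The WT sham arrays spanned a range narrower than any other group's, and none of the other 9 arrays reached it.

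H2-DMb1 and H2-DMb2 encode alternative beta chains of H2-DM. They are close copies, so each signal is uncertain as the level of 1 gene. H2-DMb1 (mm9 chromosome 17, 34297109 to 34297168) read 5.63, 5.66 and 5.48 in WT sham, 5.42, 2.63 and 2.63 in WT IRI, 2.40, 2.84 and 2.23 in KO sham, and 1.79, 2.46 and 2.10 in KO IRI. KO sham and KO IRI arrays overlapped, whereas WT sham lay above all others. It fell by 3.10 ± 0.61 in KO sham against WT sham (limma, adjusted p = 0.0148), and the WT IRI difference of -2.03 ± 0.61 did not pass (limma, adjusted p = 0.0568). H2-DMb2 (mm9 chromosome 17, 34284764 to 34284823) read 2.04, 1.86 and 1.64 in WT sham, 0.84, -5.45 and -4.42 in WT IRI, -6.47, -3.93 and -6.80 in KO sham, and -6.56, -5.90 and -6.10 in KO IRI. It was well above background on all 6 WT arrays but on only 1 of 3 KO sham and 1 of 3 KO IRI arrays, replicate 2 in both, so its values in KO are near the limit of the signal. It fell by 4.86 ± 1.35 in WT IRI (limma, adjusted p = 0.0441) and by 7.58 ± 1.35 in KO sham (limma, adjusted p = 0.00993).

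H2-Oa and H2-Ob encode the chains of H2-DO, an inhibitor of H2-DM made mainly by B cells and some dendritic cells, and their order of groups differed from that of the other members. H2-Oa (mm9 chromosome 17, 34232033 to 34232092) read -2.49, -2.69 and -2.87 in WT sham, -3.83, -3.74 and -4.76 in WT IRI, -3.32, -2.81 and -3.70 in KO sham, and -4.57, -4.48 and -4.62 in KO IRI. H2-Ob (mm9 chromosome 17, 34380481 to 34380849) read -3.20, -3.19 and -3.17 in WT sham, -5.44, -4.75 and -5.19 in WT IRI, -4.43, -3.46 and -4.25 in KO sham, and -6.03, -5.26 and -4.94 in KO IRI. Both were lower on every IRI array than on every sham array, in either genotype, and WT IRI replicate 1 was not high for either. H2-Oa fell by 1.42 ± 0.28 in WT (limma, adjusted p = 0.0143) and by 1.28 ± 0.28 in KO (limma, adjusted p = 0.028). H2-Ob fell by 1.94 ± 0.31 in WT (limma, adjusted p = 0.00699) and by 1.36 ± 0.31 in KO (limma, adjusted p = 0.0326). Between genotypes in sham kidneys the differences of -0.59 ± 0.28 for H2-Oa and -0.85 ± 0.31 for H2-Ob did not pass (limma, adjusted p = 0.233 and 0.124). Both were well above background on all 12 arrays, each by 1 probe, and the other 2 probes of H2-Ob were not kept.

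Ciita encodes the coactivator that class II transcription depends on. Its most intense probe (mm9 chromosome 16, 10526458 to 10526517) read 2.51, 2.61 and 4.61 in WT sham, 0.75, -0.77 and -1.32 in WT IRI, -1.27, 0.41 and -1.44 in KO sham, and -1.59, -1.47 and -0.68 in KO IRI. Sham replicate 3 was the highest WT array and no other array reached any WT sham array. WT IRI replicate 1 lay 2.49 below the WT sham mean, against 0.66 below it for H2-Aa and 0.28 below it for Cd74. Ciita fell by 3.69 ± 0.71 in WT IRI (limma, adjusted p = 0.0129) and by 4.01 ± 0.71 in KO sham (limma, adjusted p = 0.00983). In KO animals the difference after IRI was -0.48 ± 0.71 (limma, adjusted p = 0.76). The 2 further kept probes of Ciita also read higher on every WT sham array than on any other, but differed in detail. On 1 of them WT IRI replicate 1 read -3.30, next to -3.21 and -3.26 in WT sham replicates 1 and 2. On the other the KO IRI arrays, at -5.81, -5.02 and -4.69, were not below the KO sham arrays, at -5.28, -3.94 and -6.60. The remaining probe stayed near background on all 12 arrays.

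Across the members, each by the probe used, WT sham was the group with the highest mean and KO IRI the lowest for all 10. WT IRI and KO sham lay between them, in that order for 8 members, whose arrays in these groups overlapped. For H2-Oa and H2-Ob KO sham was above WT IRI and those arrays did not overlap. KO sham and KO IRI arrays overlapped for H2-DMb1, H2-DMb2 and Ciita. Among KO sham arrays replicate 2 was the highest for all 10 members.

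After IRI in WT kidneys, 7 of 10 class II genes fell and none rose, against 5.9% of all genes lower and 6.08% higher. The median difference was -2.41, against -0.006 over all genes, and 9 members had groups that did not overlap with IRI lower, as did 15.1% of all genes. In KO kidneys 2 members fell after IRI, H2-Oa and H2-Ob, against 4.05% of all genes lower and 2.1% higher; 7 members had IRI arrays all below sham arrays, as did 21.8% of all genes, and the median difference was -0.89. The comparisons share arrays and the calls are not independent of each other. Leaving out 1 array at a time gave between 2 and 10 calls in WT, with 2 left without WT sham replicate 1 or 2, 3 left without WT sham replicate 3, WT IRI replicate 2 or 3 or KO sham replicate 3, 4 left without KO sham replicate 1, 5 left without any 1 KO IRI array and all 10 called without WT IRI replicate 1. In KO it gave between 0 and 5: none without KO sham replicate 1 or 2 or KO IRI replicate 1 or 2, 1 without KO sham replicate 3, KO IRI replicate 3 or WT sham replicate 1 or 2, and 5 without WT IRI replicate 1.

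In sham kidneys 8 of 10 members were lower in KO and none was higher, against 3.73% of all genes lower and 5.12% higher. The members' median difference was -3.34 against 0.125 over all genes, and 9 members had groups that did not overlap with KO lower, as did 12.2% of all genes. The calls were fewer when single sham arrays were left out. In KO sham, 1 call was left with replicate 1 taken out and 2 with replicate 3 taken out, and in WT sham 3, 4 and 6 calls were left with replicates 1, 2 and 3 taken out in turn. Calls over all genes fell under the same settings, from 2297 to 649 and 788 for the KO sham arrays and to 927, 1110 and 1441 for the WT sham arrays, while the members' median stayed between -3.31 and -3.18. With the close pairs counted as 1 sample each, no member passed in any comparison by limma, with adjusted p-values (limma) of 0.0924 for Ciita to 0.217 for H2-Eb1 among these 8. Under that setting 5 of all genes passed in KO sham against WT sham, and the members' median difference was -3.19. For WT IRI against WT sham 274 of all genes passed, against 3109, with a members' median of -2.38. Genotype here cannot be told apart from slide.

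In injured kidneys no member passed between KO IRI and WT IRI by limma, while 1.02% of all genes were lower and 0.91% higher. At an unadjusted p under 0.05 there were 6 members, against 21.7% of all genes, and the median difference was -1.53. For H2-Ab1 the difference was -1.92 ± 0.62 (limma, adjusted p = 0.128) and for Cd74 it was -1.88 ± 0.72 (limma, adjusted p = 0.178). The KO IRI arrays were below every WT IRI array for 7 members, as was the case for 9.45% of all genes. For the interaction no member passed either, against 0.0694% of all genes in either direction. At an unadjusted p under 0.05 there were 2 members, H2-DMb2 and Ciita, against 9.77% of all genes. The interaction was positive for all 10, meaning a smaller loss in KO, with a median of 1.68 and a value of 3.21 ± 1.01 for Ciita (limma, adjusted p = 0.368). The H2-DMb2 value of 4.40 ± 1.92 (limma, adjusted p = 0.499) rests on KO arrays of which only 1 of 3 in each group was well above background, so its size is uncertain.

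**Figure D2:**
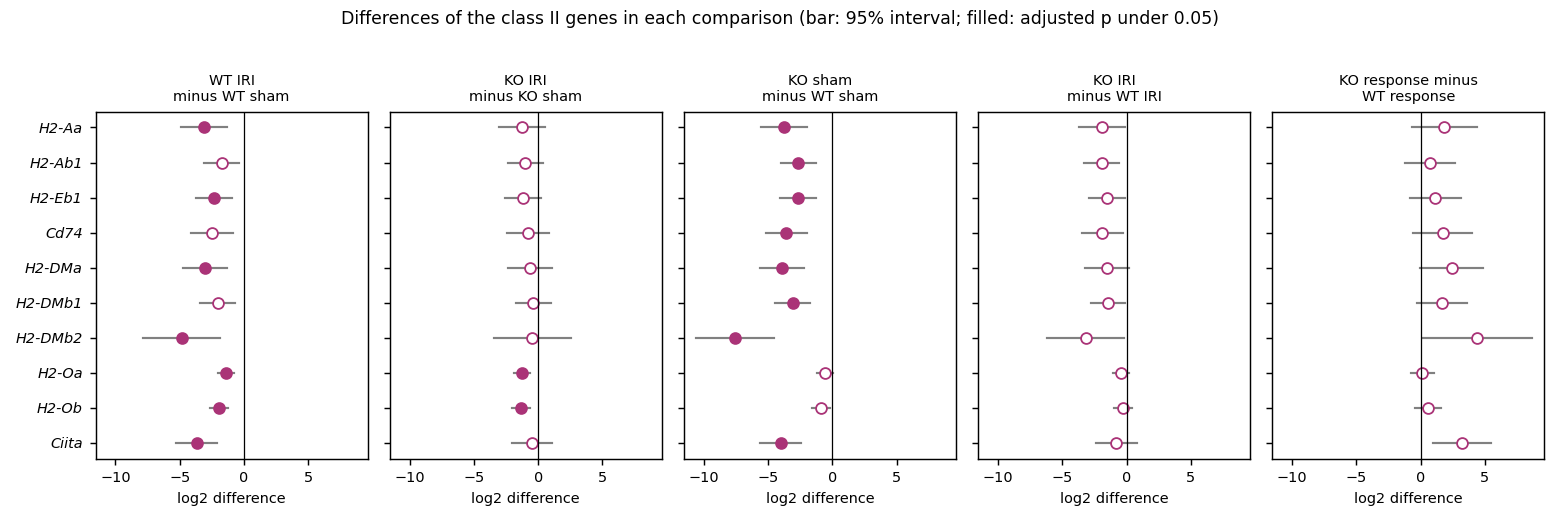
Log2 difference of each class II gene (rows) in each of the 5 comparisons (panels), with the 95% interval of the fit as a bar and a filled point where the adjusted p is under 0.05. Filled points number 7 in the first panel (the WT response to IRI), 2 in the second (the KO response) and 8 in the third (genotype in sham kidneys), and there are none in the other panels.

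WT IRI replicate 1 carried much of the spread. It exceeded the mean of WT IRI replicates 2 and 3 by 3.64 for H2-Aa, 2.71 for H2-Ab1, 2.85 for H2-Eb1, 3.30 for Cd74, 3.48 for H2-DMa, 2.79 for H2-DMb1 and 5.77 for H2-DMb2. The gap was 1.79 for Ciita, 0.42 for H2-Oa and -0.47 for H2-Ob, so the peptide-loading and chain genes separated from the H2-DO genes on this array. Without it, all 10 members fell after IRI in WT, against 6.87% of all genes, with H2-Aa at -4.30 ± 0.30 (limma, adjusted p = 0.000179), Cd74 at -3.58 ± 0.26 (limma, adjusted p = 0.000195) and Ciita at -4.29 ± 0.72 (limma, adjusted p = 0.00782). In KO, whose differences do not involve that array, 5 members then fell, against 7.97% of all genes, since the shared estimate of the spread became smaller: H2-Aa, H2-Ab1, H2-Eb1, H2-Oa and H2-Ob. The H2-Eb1 change of -1.20 in KO then had an adjusted p of 0.00913 (limma). Over all alternatives run, the adjusted p of the WT response ran from 6.56e-06 to 0.158 for H2-Aa, from 9.78e-06 to 0.194 for Cd74 and from 5.67e-05 to 0.0722 for Ciita. Of the injury-induced tubular genes, Lcn2 read 8.19, 6.17 and 7.07 in WT IRI against 2.03, 1.51 and 2.08 in WT sham. Havcr1, which encodes kidney injury molecule-1, read 2.01, 4.16 and 3.78 in WT IRI against -1.91, -2.38 and 0.04 in WT sham, so replicate 1 was the lowest of its group for it and above all sham arrays.

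Without that array the interaction passed for 6 members, all higher, against 0.328% of all genes. These were H2-Aa at 3.06 (limma, adjusted p = 0.015), H2-Eb1 at 2.08 (adjusted p = 0.0281), Cd74 at 2.80 (adjusted p = 0.0109), H2-DMa at 3.56 (adjusted p = 0.008), H2-DMb1 at 2.59 (adjusted p = 0.008) and H2-DMb2 at 6.32 (adjusted p = 0.0304), whose KO signal was mostly not above background. H2-Ab1 at 1.64, Ciita at 3.81, H2-Oa at 0.28 and H2-Ob at 0.41 did not pass (limma, adjusted p = 0.139, 0.159, 0.797 and 0.727). Over all alternatives run, the adjusted p of the interaction ran from 0.00405 to 0.914 for H2-Aa and from 0.00235 to 0.899 for H2-DMa. KO levels started lower, so these values are differences of log2 changes from unequal starting levels. Between KO IRI and WT IRI no member passed without that array, and the H2-Aa difference shrank from -1.93 to -0.72 and that of H2-DMb2 from -3.18 to -1.26.

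**Figure D3:**
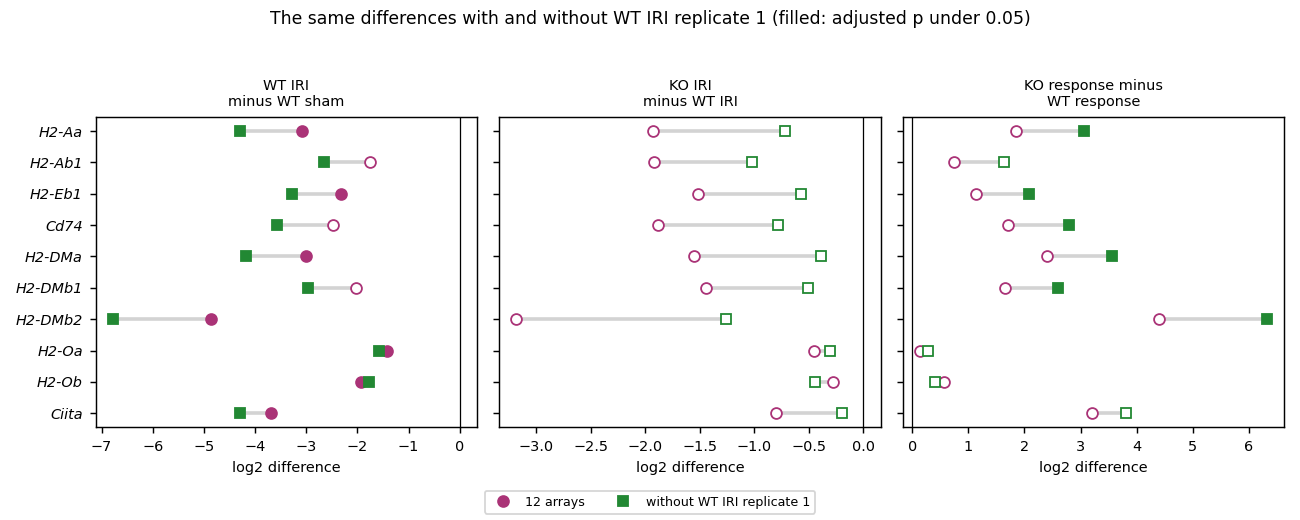
The log2 differences of the class II genes with all 12 arrays (circles) and without WT IRI replicate 1 (squares), in 3 comparisons; filled points have an adjusted p under 0.05. Without that array the WT response became larger for 9 genes and smaller for H2-Ob, and 6 genes have a filled square for the interaction.

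Other genes of the pathway were followed from lists. At the class II locus, H2-Eb2, another beta chain gene, was the listed gene outside the 10 that was measured above background. Its probe read -1.19, -1.57 and -2.23 in WT sham, -5.14, -5.92 and -5.55 in WT IRI, -7.84, -5.81 and -5.83 in KO sham and -8.06, -6.04 and -4.97 in KO IRI. Here WT IRI replicate 1 lay far below WT sham with the rest of its group, and the probe was well above background on 2 of 3 arrays in each KO group. H2-Eb2 fell by 3.87 ± 0.75 after IRI in WT (limma, adjusted p = 0.0129) and was lower by -4.83 ± 0.75 in KO sham (limma, adjusted p = 0.00616).

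The factors that CIITA works with on the X and Y boxes, the RFX and NF-Y subunits and CREB1, were all measured. Of these 7, 1 fell in WT IRI, Nfyc by 0.45 ± 0.13 (limma, adjusted p = 0.0454), none rose, and none passed in the other 4 comparisons, where between 0 and 1 had an unadjusted p under 0.05. Without WT IRI replicate 1 none passed in any comparison. Rfxap, an RFX subunit, differed by -0.08 ± 0.13 between KO sham and WT sham (limma, adjusted p = 0.773).

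Of 12 endosomal processing and turnover genes, 2 fell in WT IRI, 1 in KO IRI and 1 in KO sham against WT sham, and none rose. Over all genes 5.9%, 4.05% and 3.73% fell in these comparisons. The medians of the list were -0.16, -0.12 and -0.17, against -0.006, -0.082 and 0.125 over all genes. Marchf1, the ubiquitin ligase that removes class II molecules from the surface, read 1.64, 1.48 and 1.41 in WT sham, -0.74, -0.41 and -0.37 in WT IRI, 0.35, 1.59 and 0.63 in KO sham and -0.60, -2.74 and -0.94 in KO IRI. It fell after IRI by 2.02 ± 0.49 in WT (limma, adjusted p = 0.0276) and by 2.28 ± 0.49 in KO (limma, adjusted p = 0.0253), and the WT change had an adjusted p of 0.0593 without WT IRI replicate 1. Ctss, the cathepsin that degrades the invariant chain in most antigen-presenting cells, read 4.72, 4.65 and 5.20 in WT sham and 2.63, 3.24 and 2.52 in KO sham. It fell by 2.06 ± 0.27 between them (limma, adjusted p = 0.00358), and its WT IRI difference was -0.58 ± 0.27 (limma, adjusted p = 0.178). The other protease genes with high signal, Lgmn and Ctsl, differed by -0.27 ± 0.21 and -0.02 ± 0.26 in KO sham (limma, adjusted p = 0.476 and 0.97).

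Cd86, a co-stimulatory ligand that antigen-presenting cells show to CD28 on T cells, read -1.42, -1.38 and -1.32 in WT sham, -2.52, -2.78 and -3.14 in WT IRI and -3.58, -2.80 and -3.59 in KO sham. It fell by 1.44 ± 0.22 in WT IRI (limma, adjusted p = 0.00556) and by 1.95 ± 0.22 in KO sham (limma, adjusted p = 0.00255). In WT IRI it was the 1 co-stimulation gene of 7 to fall, and in KO sham it was among 3 of 7. Of 8 CD4 T cell genes, 5 fell in WT IRI and 3 in KO sham, with medians of -2.07 and -1.57. Cd3g, a T cell receptor chain, read 0.09, 0.08 and -3.01 in WT sham and -5.28, -4.81 and -5.57 in WT IRI, and fell by 4.27 ± 0.76 (limma, adjusted p = 0.0096). WT sham replicates 1 and 2 were thus far above replicate 3 for Cd3g, while the class II genes other than Ciita lay closer together on these 3 arrays. Cd4 itself differed by -0.17 ± 0.19 (limma, adjusted p = 0.613).

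Interferon gamma is an inducer of Ciita, and of 11 genes of this axis 6 fell and 1 rose in WT IRI, 5 fell in KO sham and 1 fell in KO IRI. Ifng itself read -1.42, -1.39 and -4.97 in WT sham and -6.16, -6.03 and -6.66 in WT IRI, and fell by 3.69 ± 0.93 (limma, adjusted p = 0.0312). It was well above background on 1 of 3 WT IRI arrays, so the size of the fall is uncertain, and it ran from -4.88 to -1.70 over the alternatives. Without WT IRI replicate 1 the adjusted p was 0.055. Cxcl9, a chemokine induced by interferon gamma, fell in both genotypes after IRI, by 4.05 ± 0.78 in WT (limma, adjusted p = 0.0129) and by 3.45 ± 0.78 in KO (limma, adjusted p = 0.0306).

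MHC class I presentation genes, which share inducers with class II but act in nearly all cells, included 5 of 10 that fell in WT IRI, 10 of 10 that fell in KO sham against WT sham and none that passed in KO IRI against KO sham, where none had an unadjusted p under 0.05. Psmb8, an immunoproteasome subunit, read 5.60, 5.56 and 5.91 in WT sham, 4.99, 1.68 and 1.56 in WT IRI, 0.84, 1.59 and 0.72 in KO sham and 0.66, 0.81 and 1.01 in KO IRI. WT IRI replicate 1 was again close to the sham arrays. Psmb8 fell by 2.95 ± 0.74 in WT IRI (limma, adjusted p = 0.0298) and by 4.64 ± 0.74 in KO sham (limma, adjusted p = 0.00644). B2m, the class I light chain, fell by 1.53 ± 0.30 in KO sham (limma, adjusted p = 0.0146). Without WT IRI replicate 1 all 10 fell in WT IRI, and 7 of 10 passed as higher in the interaction.

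Markers of the cells that carry class II were followed in the same way. Of 10 measured dendritic cell markers 3 fell in WT IRI, 2 in KO IRI and 4 in KO sham against WT sham, and none passed as higher. Cd209a went the other way in KO sham, at -2.69, -3.37 and -3.08 against -5.44, -5.58 and -5.81 in WT sham. Without WT IRI replicate 1, 5 of the 10 fell and 1 rose in KO sham against WT sham. The summed linear signal of the 10 markers, in units of the array's 75th percentile, ran from 31.7 to 48.1 in WT sham, 30.8 to 36.2 in WT IRI, 25.8 to 32.6 in KO sham and 20.7 to 28.4 in KO IRI. Siglech, a plasmacytoid dendritic cell gene, gave 59% to 85.8% of this sum, and the sum of the other 9 was 10 to 19.7 in WT sham, 6.39 to 7.06 in WT IRI, 3.98 to 5.85 in KO sham and 4.37 to 5.19 in KO IRI. Clec9a, a marker of cross-presenting dendritic cells, read -1.31, -1.26 and -1.53 in WT sham and -4.73, -4.26 and -5.18 in WT IRI, so that WT IRI replicate 1 was not high for it. Clec9a fell by 3.36 ± 0.56 (limma, adjusted p = 0.00753), and by 2.33 ± 0.56 in KO (limma, adjusted p = 0.0379), where it was well above background on only 1 of 3 IRI arrays. Of 12 macrophage and monocyte markers, 5 fell and 1 rose in WT IRI, 1 fell and 1 rose in KO IRI and 6 fell in KO sham. Their sum was 256 to 286 in WT sham, 172 to 278 in WT IRI with replicate 1 the highest, 159 to 179 in KO sham and 125 to 147 in KO IRI. Ly6c2, a monocyte gene, gave 82.2% to 89.5% of it. Without Ly6c2 the sum was 24.4 to 29.2 in WT IRI, again with replicate 1 the highest, against 36.2 to 38.8 in WT sham. In KO it was 25.4 to 31.4 on sham arrays and 19.9 to 25.1 on IRI arrays. By a measure that weights genes equally WT IRI replicate 1 was instead the lowest of its group. The mean centred log2 level of the 12 markers was -0.31 there against 0.07 and 0.10 on replicates 2 and 3. Single markers were split, as Adgre1, Cx3cr1, Ccr2, Fcgr1 and Aif1 were each lowest of the group on that array. Csf1r, Cd68, C1qa, C1qb, C1qc, Mrc1 and Ly6c2 were each highest of the group there.

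Of 6 measured B cell markers 1 fell in WT IRI, 3 fell in KO IRI and none passed in KO sham, where 3 had an unadjusted p under 0.05. Their sum was 0.811 to 1.1 in WT sham, 0.621 to 0.686 in WT IRI, 0.79 to 1 in KO sham and 0.402 to 0.6 in KO IRI, so the IRI arrays of each genotype lay below its sham arrays, as for H2-Oa and H2-Ob. Of 9 T and NK cell markers 7 fell in WT IRI and 4 in KO sham, and their sum ranged from 3.38 to 24.7 in WT sham alone, against 1.64 to 2.17 in WT IRI, 2 to 3.4 in KO sham and 1.54 to 1.82 in KO IRI. WT IRI replicate 1 had the highest T and NK sum of its group, at 2.17, below every WT sham array. By the mean centred log2 level of these markers it lay between the others of its group, at -0.74 against -0.52 and -0.99. Of 7 neutrophil markers 4 rose and 1 fell in WT IRI, 2 rose in KO IRI and 3 fell in KO sham. Of 4 pan-leukocyte genes 3 fell in KO sham against WT sham, with sums of 5.9 to 16.7 in WT sham, 5.52 to 5.76 in WT IRI, 3.46 to 5.01 in KO sham and 3.21 to 3.43 in KO IRI. The other gene, Ptprc, read 0.87, 1.14 and 0.82 in KO sham, above 0.41, 0.76 and 0.40 in WT sham, and did not pass. Coro1a gave 33.9% to 84.7% of the sum. Without Coro1a the sums of the groups overlapped, at 2.03 to 2.75 in WT sham and 1.99 to 2.6 in KO sham. On IRI arrays they were 2.2 to 2.48 in WT and 1.62 to 2.26 in KO. Among these markers Cxcr2 was the one near background on all 3 KO sham arrays. The part of these markers in the class II values was not tested.

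**Figure D4:**
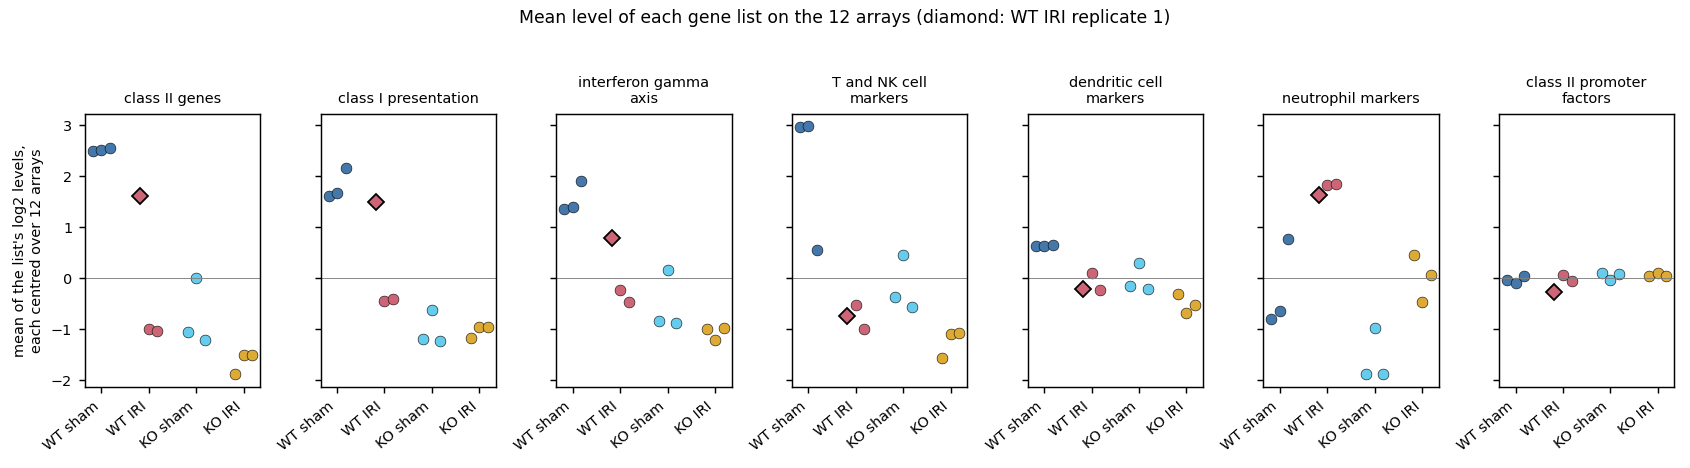
Mean log2 level of the class II genes and of 6 lists on each array, each gene first centred on its mean over the 12 arrays; points are arrays by group and the diamond is WT IRI replicate 1. The diamond is at 1.61 for class II genes, near the WT sham arrays at 2.50 to 2.56 and far from the other WT IRI arrays at -1.0 and -1.03, while it lies among the WT IRI arrays for T and NK cell and dendritic cell markers.

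**Figure D5:**
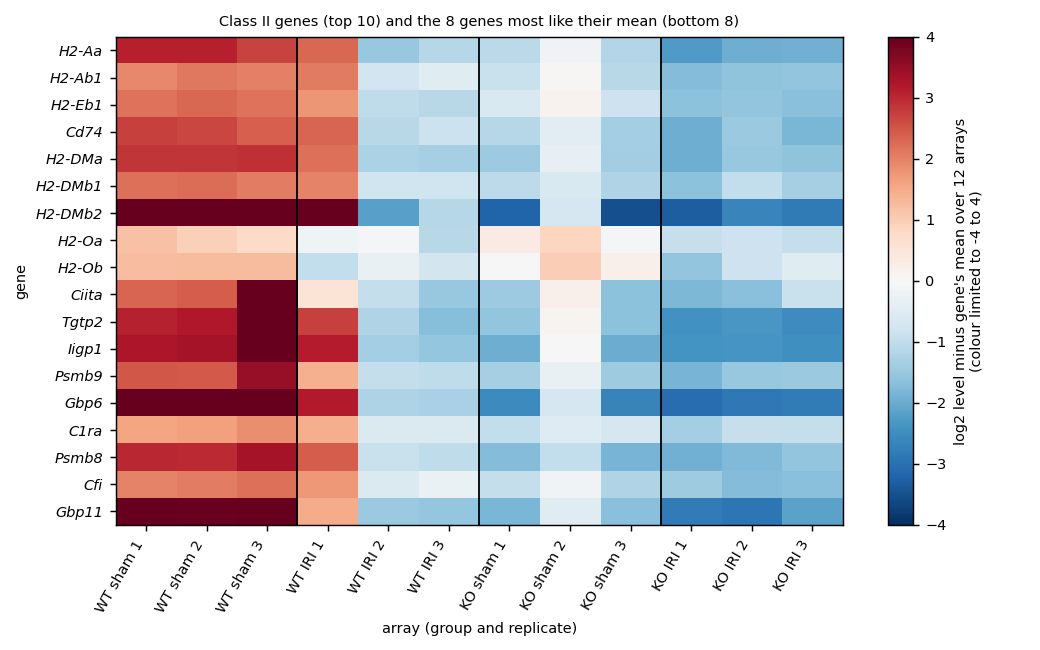
Levels of the 10 class II genes and of the 8 genes whose pattern was most like their mean, as log2 level minus each gene's mean over the 12 arrays; columns are arrays by group and replicate and the colour scale stops at -4 and 4. Rows other than H2-Oa and H2-Ob are red in WT sham and in WT IRI replicate 1 (pale for Ciita) and blue or pale elsewhere.

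The members varied together to different degrees. The correlation of a member with the mean of the other 9 over the 12 arrays, which all share the group differences, was between 0.974 and 0.994 for the chain, invariant chain and H2-DM genes, 0.922 for Ciita, 0.757 for H2-Oa and 0.679 for H2-Ob. For deviations from the group means, to which WT IRI replicate 1 contributes most, it was 0.959 to 0.99 for the first 7, 0.655 for Ciita, 0.492 for H2-Oa and -0.0315 for H2-Ob. Among 16477 genes with an ordinary symbol, those most like the class II mean over the 12 arrays were Tgtp2 (r = 0.991), Iigp1 (r = 0.9891), Psmb9 (r = 0.9879), Gbp6 (r = 0.986), C1ra (r = 0.9823), Psmb8 (r = 0.9814), Cfi (r = 0.9807) and Gbp11 (r = 0.9802). Tgtp2, Iigp1, Gbp6 and Gbp11 encode interferon-inducible GTPases, C1ra and Cfi encode complement proteases, and Psmb8 and Psmb9 are immunoproteasome subunits. Tgtp2 read 7.08, 7.22 and 8.27 in WT sham, 6.76, 2.82 and 2.32 in WT IRI, 2.43, 4.14 and 2.37 in KO sham and 1.61, 1.68 and 1.51 in KO IRI. It was high on WT IRI replicate 1 and on KO sham replicate 2, the arrays on which the class II genes were high within their groups. Tgtp2 was picked by its likeness over these same arrays, so this is a description and not separate evidence.

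By deviations from the group means the genes most like the class II mean were Psmb8 (r = 0.9794), Ubd (r = 0.9757), H2-K2 (r = 0.9755), Llcfc1 (r = 0.9741) and H2-D1 (r = 0.9727), over 12 arrays. Llcfc1 read -1.33 on WT IRI replicate 1 and between -2.71 and -2.21 on the other 11 arrays, so for that gene the likeness rests on this array. Jaml had an r of 0.828 over the 12 arrays and 0.848 for deviations, and within WT IRI its level was also highest on replicate 1, at 0.55 against -1.80 and -1.64. Without that array Jaml fell by 1.40 after IRI in WT (limma, adjusted p = 0.028), against -0.64 ± 0.55 with it (limma, adjusted p = 0.48).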

How the data were processed

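Each deposited scanner file holds 1 array's spot intensity values written, per the file headers, by Agilent Feature Extraction 10.7.1.1, in which the processed signal is background-corrected within the array and not scaled between arrays. A deposited table also holds the authors' log2 values, all with a median of 5.71 per array, for which the submitters' processing notes name limma without a version; they served as an alternative. Control and outlier spots were left out, spots of 1 probe were averaged, and log2 processed signals were reduced by each array's 75th percentile. A probe was kept if well above background on at least 3 of 12 arrays, and a gene was read from its kept probe with the highest mean. Of 56605 probes, 32994 took a symbol from the RefSeq table for GRCm38.p6 by accession and 23611 kept the file's name; probe positions are those of the files, on mm9.

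Groups were compared by limma (version 3.58.1, under R 4.3.3). All 12 arrays entered 1 model with a term for each group and 8 residual degrees of freedom, two-sided, with Benjamini-Hochberg adjustment over 25947 genes and a threshold of 0.05. Errors are standard errors of this fit. The fit was tested on simulated data. Precision is limited by 3 arrays per group. The members and the gene lists were chosen with earlier results of these data known. The rule names the 10 members and Jaml, from each list up to 4 genes past the threshold by size of change or otherwise the 2 with the highest mean, and the genes most like the class II mean; a selection of these is given, and 1 gene that the rule takes is not reported here. Lcn2, Havcr1 and Cd209a are given outside this rule, after their values were seen. Alternatives were the scaling, background correction, filter, probe choice, spread estimate, array weights, slide and replicate blocks, the samples fitted, the authors' values and leaving out each array; counting the closest sham arrays as 1 sample was added after seeing the data.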

Additional observations from a re-analysis of the deposited data

How the results depend on the processing

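No result changed from a call in one direction to a call in the other under any alternative tried. Of the 10 class II genes, the 7 that passed in WT IRI against WT sham became 4 with no filter on dim probes, 1 with only the groups of the comparison fitted, 3 with the replicate block and 0 with the closest sham arrays counted as 1 sample, and ranged from 2 to 10 when 1 array was left out. The 2 in KO IRI against KO sham became 1 with quantile normalization or the authors' log2 values and 0 with the closest sham arrays counted as 1 sample, and ranged from 0 to 5. The 8 in KO sham against WT sham became 0 with the closest sham arrays counted as 1 sample, an alternative chosen after seeing the data, and ranged from 1 to 8. The 0 in KO IRI against WT IRI became 1 with array weights and stayed at 0 when 1 array was left out. The 0 in the interaction became 8 with array weights and ranged from 0 to 6. The alternatives that fit fewer arrays or fewer groups leave fewer residual degrees of freedom; the cause of the other changes was not tested. The replicate numbers did not pair the samples: deviations of arrays with the same number correlated at -0.267 to 0.151, with 4 of 18 pairs over 0.1 and 2 of 12 arrays closest to their own number, and the block gave 3, 2, 8, 0 and 0 calls in the 5 comparisons. With the slide as a block the IRI comparisons and the interaction have the same values by construction, and KO against WT could not be fitted. H2-DMb2 in KO, at 1 of 3 arrays well above background, is limited by signal over background.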
